A study of Mus musculus with 3 samples.

Results

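Parvalbumin interneurons of the nucleus accumbens were taken from single-cell RNA counts as GABAergic cells that carried several marker transcripts of the class. A cell was a member when Pvalb, Pthlh, Kit and Cox6a2 together gave at least 3 UMIs (molecular tags, each counting 1 RNA molecule once) with at least 2 of the 4 genes detected. It also needed at least 1 UMI of Gad1 or Gad2, no UMI of Drd1 or Adora2a, and fewer than 10 UMIs of Sst. This gave 53 cells. They were drawn from the 10291 cells, of 11625 deposited, in which 300 or more genes were detected and no more than 20% of UMIs were mitochondrial.

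The tissue was a coronal dissection from Thy1::ChR2 mice, in which the Thy1 promoter drives the light-gated channel ChR2 in subsets of neurons. All 3 samples belonged to 1 group, labelled with FLiCRE while ChR2 in the accumbens was stimulated, so no unstimulated or unlabelled group enters the comparisons. FLiCRE records a rise of calcium that coincides with light as transcription of a reporter: a TEV protease frees the transcription factor tTA, which drives the reporter, taken here to be the mCherry feature. The 3 libraries are numbered by the suffix of their cell barcodes, which the labels do not tie to a numbered replicate. Nothing says whether they came from separate animals. With the library as a block, p-values rest on how the difference between cell groups varied over libraries, and that spread may be technical.

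Parvalbumin interneurons are a sparse class of locally projecting inhibitory cells. In the striatum they receive fast excitation, fire at high rates with short spikes, and inhibit the far more numerous projection neurons at and near the cell body. Parvalbumin itself is a slow calcium buffer. The class derives from the medial ganglionic eminence, the embryonic zone marked by Nkx2-1, as do the interneurons that make somatostatin.

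The members numbered 12, 31 and 10 in libraries 1, 2 and 3. They made up 1.33% of the 900 neurons of library 1 (exact 95% interval 0.691 to 2.32), 0.748% of the 4143 of library 2 (0.509 to 1.06) and 1.01% of the 987 of library 3 (0.487 to 1.86), where a neuron had at least 3 UMIs of Snap25, Syt1, Meg3 and Snhg11 together. All 53 members met that criterion. The mean share over libraries was 1.03%, and the 3 intervals overlapped. With cells of at least 1000 UMIs the mean share was 1.49%, and with at least 1 Pvalb UMI required it was 0.533%.

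The comparison group, called gate-negative neurons here, held 5706 neurons without a UMI of the 4 gate genes (883, 3888 and 935 by library). The median member had 3574 UMIs (1784, 3816 and 3842 by library) and the median gate-negative neuron 2208.5 (1010, 2497 and 2613), so the members were the deeper cells in each library. The median mitochondrial share was 8.96% in members and 6.94% in gate-negative neurons. Libraries shared 13, 7 and 22 barcode sequences in pairs, and 2 members carried a shared barcode. Among the highest doublet scores, 368 cells in all, were 3 members; they stayed in the results below unless stated.

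The gate genes were counted unevenly from cell to cell. Kit, a receptor tyrosine kinase, had a UMI in 48 of the 53 members, and Cox6a2, a tissue-restricted subunit of cytochrome c oxidase, in 47. Pthlh, which encodes parathyroid hormone-related peptide, was detected in 38 members. Pvalb itself was detected in 25 (47.2%): 7 of 12, 13 of 31 and 5 of 10 by library. The highest counts in a single member were 12 UMIs of Pvalb, 20 of Pthlh, 11 of Kit and 23 of Cox6a2. These values chose the members and are a description. In 1143 cells gated as oligodendrocytes, which should lack these genes, the shares with a UMI were 1.40% for Pvalb, 0.437% for Pthlh, 1.49% for Kit and 1.05% for Cox6a2, at a median of 2058 UMIs.

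On the mouse genome build GRCm38 (mm10), in GENCODE annotation, Pvalb lies at chr15:78191114-78206400 on the minus strand and Pthlh at chr6:147252101-147264183 on the minus strand. Kit lies at chr5:75574916-75656722 on the plus strand and Cox6a2 at chr7:128205435-128206387 on the minus strand. The members, a small fraction of the kept cells, held 38.9% of all Pvalb UMIs, 54.3% of Pthlh, 46.5% of Kit and 45.5% of Cox6a2.

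**Figure D1:**
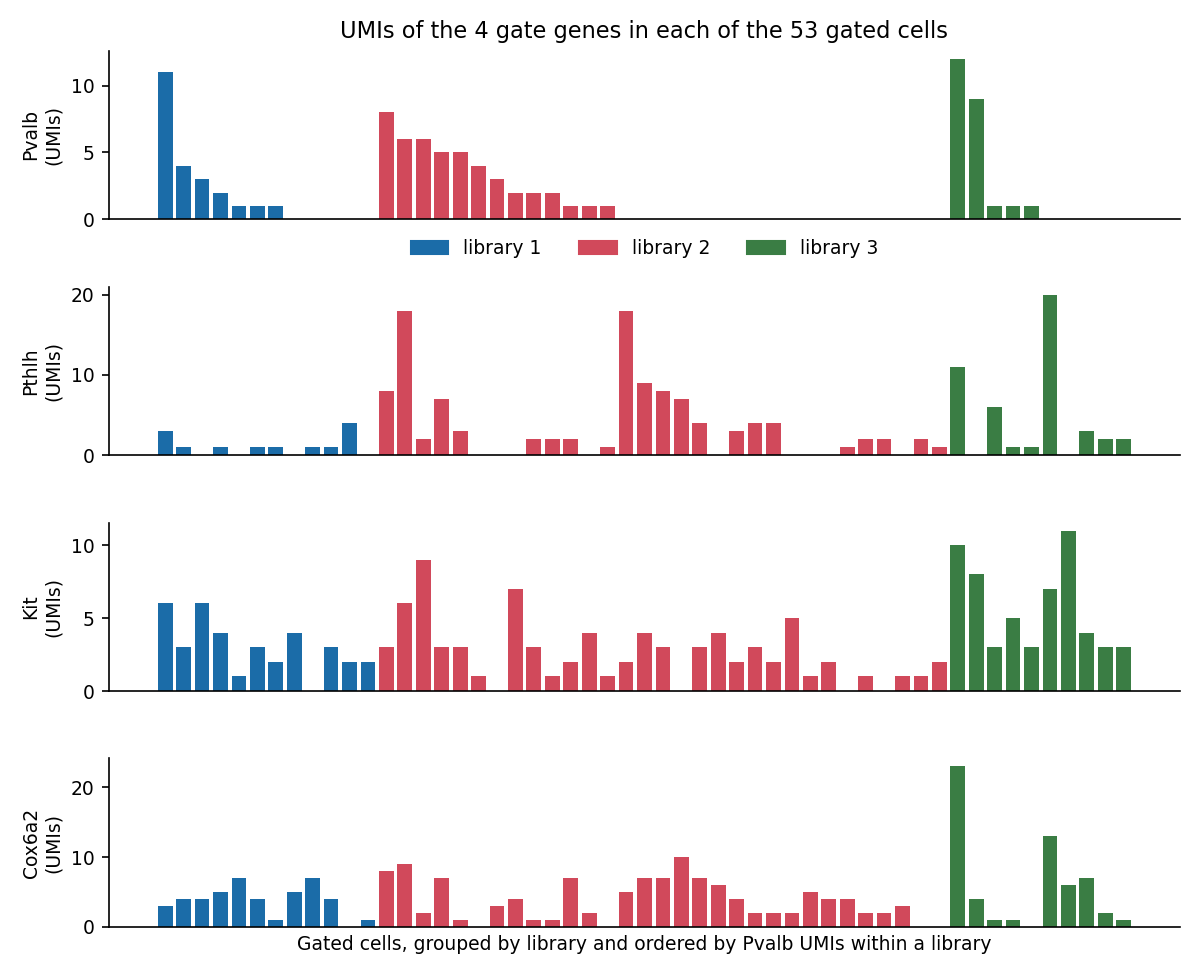
UMIs of Pvalb, Pthlh, Kit and Cox6a2 (vertical axes, UMIs) in each of the 53 members, 1 bar a cell, grouped by library and ordered by Pvalb within it. Pvalb is at 0 in 28 members, and those cells carry UMIs of at least 2 of the other 3 genes.

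All 4 genes were detected in 16 members, and Pthlh, Kit and Cox6a2 without Pvalb in 13. A further 8 members had Kit and Cox6a2 alone. At the edge of the rule, 4 members had a gate sum of 3 and 2 had a sum of 4. Just outside it, 6 cells with 2 gate genes had a sum of 2, and 5 cells with a sum of 3 or more had 1 gate gene. Another 10 cells passed the 4-gene condition, Gad1 or Gad2 and Sst but had a UMI of Drd1 or Adora2a, the dopamine and adenosine receptors of projection neurons. Those 10 cells had a median of 5871 UMIs, a median gate sum of 16 and a median of 1 receptor UMI, so the receptor condition left out deep cells that carried the gate genes.

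The label was checked on 14 parvalbumin class markers outside the gate. The members and gene lists were chosen with earlier results of these data known, so this is no independent test of the label. A median of 5 of them were detected in members, against 0 in gate-negative neurons, 1 in 265 gate-negative neurons matched to members on UMIs within library, and 3 in neurons with at least 10 Sst UMIs. At least 3 were detected in 43 of 53 members, in 3.38% of gate-negative neurons and in 5.66% of the matched ones. They were also detected in 17 of the 26 neurons with at least 10 Sst UMIs (65.4%), so most cells of that class met the same count. Among the members with Pvalb it was 23 of 25, and among those without it 20 of 28. None of the 14 was detected in 2 members.

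A few members also carried transcripts of other cell types. One member of library 2 held 52 of the 62 Npy UMIs of all members, and another of library 2 held 6 of the 8 Slc17a7 UMIs, a glutamatergic marker. One member of library 3, the deepest with 15589 UMIs, held 161 of the 257 astrocyte marker UMIs and was among the highest doublet scores. Sst did not exceed 2 UMIs in any member.

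Members with and without a Pvalb UMI had like depth, with medians of 3667 and 3360.5 UMIs. Their pooled levels, in CPM (UMIs per 1000000 UMIs of the group), are a description, since Pvalb divided them. Libraries were pooled, and a deep cell weighed in each side. It had 15589 UMIs on the side with Pvalb, the member rich in astrocyte markers, and 14577 on the side without. Nxph1, a neurexin ligand, stood at 783 with Pvalb and 947 without it, Erbb4, the neuregulin receptor, at 550 and 498, and Maf, a transcription factor of these interneurons, at 298 and 268. The perineuronal net gene Hapln4 stood at 168 with Pvalb and 57.4 without it, and Kcnc1, a Kv3 potassium channel, at 438 and 278. Nkx2-1 ran the other way, at 158 and 325. Hapln4 rested on 18 and 6 UMIs, Kcnc1 on 47 and 29, and Nkx2-1 on 17 and 34.

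Against gate-negative neurons, members had higher levels of medial ganglionic eminence genes and of potassium and sodium channels of fast firing, and lower levels of projection neuron genes. Counts were summed per library and group and compared with edgeR's quasi-likelihood test with the library as a block, without the 13 genes that chose the cells. Of 8732 genes tested, 975 (11.2%) passed an adjusted p of 0.05: 387 (4.43%) were higher in members and 588 (6.73%) lower. The median log2 fold change of all genes was -0.18. Without any 1 of the 3 libraries edgeR passed 0 genes (1691, 1125 and 1376 at an unadjusted p under 0.05 without library 1, 2 and 3), and DESeq2 passed 299, 164 and 352. All of the 975 genes that could be tested there (970, 924 and 942) kept their sign. DESeq2 on all libraries passed 540 (6.18%), of which 49.8% were higher, against 39.7% of the calls by edgeR. With members limited to those with a Pvalb UMI, edgeR passed 524 (6.12%).

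Among the 15 genes with the largest rise was Nkx2-1 (chr12:56531958-56536908), at 201, 280 and 178 CPM in the members of libraries 1 to 3 and 2.94, 1.23 and 0.901 in gate-negative neurons. The libraries of both groups lay far apart, with a log2 fold change of 7.42 (SE 0.45, adjusted p = 5.32e-07). This homeobox factor specifies the medial ganglionic eminence and had a UMI in 29 of the 53 members. Igfbp4 (chr11:99041244-99054392), a secreted binder of insulin-like growth factors, reached 3654, 1152 and 2230 CPM in members, a mean of 2345 ± 1255 (SD, n = 3 libraries), against 22.4 ± 6.72. It had a UMI in 48 members and a log2 fold change of 6.16 (SE 0.30, adjusted p = 2.34e-07). Nxph1 stood at 1245, 912 and 614 CPM in members and 8.86 ± 6.21 in gate-negative neurons, and was likewise found in 48 members.

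Crabp1, a retinoic acid binding protein, stood at 557 ± 88.0 CPM in members and 8.02 ± 5.16 in gate-negative neurons, with a log2 fold change of 6.17 (SE 0.34). Gjd2, the connexin 36 of electrical synapses between interneurons, stood at 161, 144 and 113 CPM against 0.897 ± 0.791. It was detected in 20 members, on 29 UMIs. Opn3, an opsin, stood at 222 ± 60.6 against 1.72 ± 0.699. The remaining genes of the 15 were Il1rapl2, Adamts5, Gpc3, Moxd1, Col19a1, Egfr, Maf, A330050F15Rik and Pde3a, with log2 fold changes of 5.21 (Pde3a) to 6.58 (Il1rapl2). In all 15 the libraries of members lay above those of gate-negative neurons, as the rule for naming genes asked for the same sign in every library; over all genes tested the libraries of the groups did not overlap in 29.3%.

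**Figure D2:**
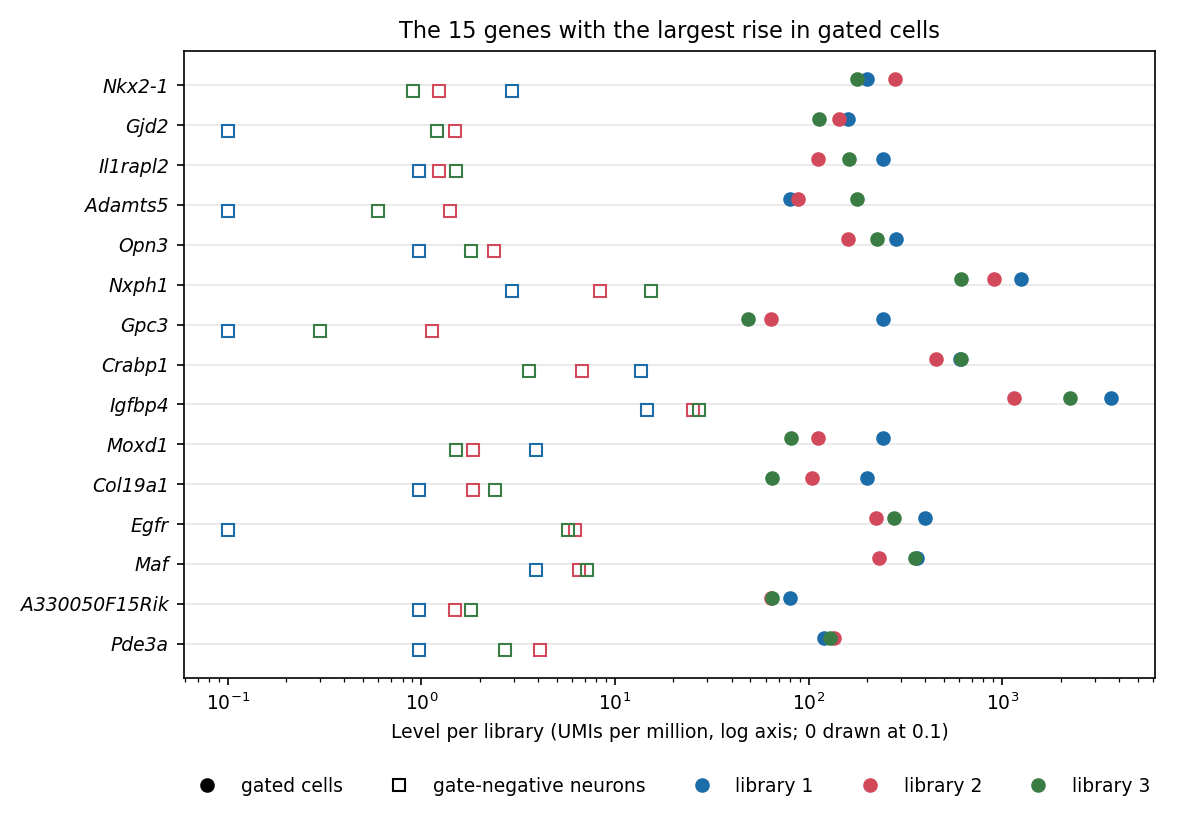
Level per library (CPM, log axis, 0 drawn at 0.1) of the 15 genes with the largest rise, in members (filled circles) and gate-negative neurons (open squares), coloured by library. Nkx2-1 lies between 178 and 280 in members and at most at 2.94 in gate-negative neurons.

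Members also had more of other parvalbumin class genes, from a list chosen with earlier results of these data known. Of 12 such genes outside the gate, 8 were tested, 7 were higher and 0 lower, with a median log2 fold change of 3.93. Slit2, Eya1, Tmem132c and Lypd6b were not tested. Slit2 and Eya1 had 0 UMIs in members, Tmem132c had 1 and Lypd6b had 4. Slit2 is also among the markers used to check the label. Erbb4, through which neuregulins act on these interneurons, stood at 843, 520 and 404 CPM in members against 12.7, 37.6 and 52.6. Its log2 fold change was 3.74 (SE 0.35, adjusted p = 2.53e-05), and it was found in 41 members. Gpr83, a G protein-coupled receptor, stood at 753 ± 279 in members and 118 ± 2.52 in gate-negative neurons. Cntnap4 and Vwc2 had log2 fold changes of 4.12 and 4.79. Btbd11 passed on 5 UMIs (adjusted p = 0.0495) and missed the threshold by DESeq2 (0.107). Rbp4 did not pass, at a log2 fold change of -2.48 (adjusted p = 0.0548).

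Of 15 transcription factors and regulators of interneurons, 14 were tested, 9 were higher and 0 lower, with a median log2 fold change of 2.43. Maf, a factor of the medial ganglionic eminence lineage, stood at 316 ± 73.0 CPM in members against 5.87 ± 1.73. Sox6, which acts downstream of Lhx6, was higher by a log2 fold change of 3.66, and Lhx6 by 3.28, on 9 UMIs in 9 members. Lhx6 missed the threshold in members with a Pvalb UMI (adjusted p = 0.124). Etv1 rose by 2.43 and Ppargc1a, a coactivator of mitochondrial genes, by 1.96, while Satb1, Dlx1, Dlx2, Dlx5 and Dlx6 did not pass.

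Of 17 channel genes tied to fast firing, 16 were tested, 7 were higher and 1 lower, with a median log2 fold change of 0.92. Kcnc1, whose Kv3 channel shortens the spike, stood at 562, 288 and 420 CPM in members against 87.1, 69.5 and 79.6, a log2 fold change of 2.16 (SE 0.23, adjusted p = 5.81e-05). Kcnip1, a modulator of Kv4 channels, rose by 4.47. Scn1a, the sodium channel Nav1.1, stood at 292 ± 49.3 CPM against 79.3 ± 16.4 (log2 fold change 1.77). Kcna2 rose by 1.69. Kcns3 passed on 6 UMIs in 5 members, with none in library 1. Scn4b, a sodium channel subunit abundant in projection neurons, fell by 4.98, at 13.4 ± 16.8 CPM against 476 ± 211. Kcnc2, at a log2 fold change of 0.91 on 7 UMIs, did not pass.

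Of 12 genes of GABA handling and release, all tested, 2 were higher and 2 lower (median 0.49). The complexin Cplx1 was higher, at 967 ± 457 CPM against 192 ± 28.8, whereas Cplx2 was lower at 236 ± 115 against 706 ± 229. The vesicle protein Sv2c fell by 2.63. The vesicular GABA transporter Slc32a1 stood at 362 ± 78.5 against 205 ± 37.1 and did not pass (adjusted p = 0.101); against the neurons matched on UMIs it did (0.0132). Syt2, a calcium sensor of fast release, had 1 UMI in all members.

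Energy genes differed by small amounts, and none of them passed in members with a Pvalb UMI. Of 15 respiratory chain and energy genes, all tested, 5 were higher and 0 lower, with a median log2 fold change of 0.41. Ndufa4, a subunit associated with cytochrome c oxidase, stood at 2610, 3376 and 3183 CPM in members and 1029, 1640 and 1184 in gate-negative neurons, a log2 fold change of 1.09 (SE 0.17, adjusted p = 0.001). In members with a Pvalb UMI, 0 of the 15 genes passed by edgeR and the median was 0.14. Ndufa4 had an adjusted p of 0.0537 there, and Atp5b, Atp5g3 and Cox6c had log2 fold changes of 0.19, 0.27 and 0.25. Among all members Atp5g3 rose by 0.86, and Atp5b, Cox5a and Cox6c by 0.74, 0.66 and 0.61. These 4 missed the threshold without the 2 members of over 10000 UMIs, both of library 3 (adjusted p = 0.193, 0.426, 0.239 and 0.396), and by DESeq2. Cox6a1, the widely expressed counterpart of Cox6a2, stood at a log2 fold change of -0.11.

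Perineuronal nets are matrix sheaths that often wrap parvalbumin cells. Of 7 net genes, 5 were tested, 3 were higher and 1 lower. The link protein Hapln1 stood at 281, 208 and 291 CPM in members and 2.94, 8.24 and 3.90 in gate-negative neurons (log2 fold change 5.20, SE 0.41, adjusted p = 4.97e-06). Hapln4 rose by 3.10. The proteoglycan Bcan was higher by 1.45. It missed the threshold without high doublet scores (adjusted p = 0.224), without the 2 members of over 10000 UMIs (0.249) and by DESeq2 (0.0868). Bcan also missed it without the block (0.0747), with cells of at least 1000 UMIs (0.0565) and against neurons matched on the other conditions (0.0887). Ncan fell by 1.67 and missed it against neurons matched on UMIs (0.101) and by DESeq2 (0.132). Ncan did so too in members with a Pvalb UMI (0.0685) and without the 2 members of over 10000 UMIs (0.0523). Acan and Vcan were not tested. Of 4 neurofilament genes, Nefh alone passed, at 85.7 ± 32.5 CPM against 18.7 ± 2.59. Nefh missed the threshold without the 2 members of over 10000 UMIs (adjusted p = 0.177), in members with a Pvalb UMI (0.19) and against neurons matched on UMIs (0.0795).

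Among 12 other calcium-binding genes, 11 were tested, 2 were higher and 4 lower. Calb1, the calcium buffer calbindin, stood at 0, 64.0 and 32.3 CPM in members and 243, 514 and 357 in gate-negative neurons, a log2 fold change of -3.32 (SE 0.38). Hpca fell by 3.16, Pcp4 fell by 2.40 and Calm2 fell by 0.94. Ncald and Necab1 rose by 1.55 and 1.2. Calm2 missed the threshold without the library block (adjusted p = 0.31), and Necab1 in members with a Pvalb UMI (0.148).

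Glutamate receptor genes differed in both directions. Gria4, an AMPA receptor subunit of fast kinetics, stood at 241, 160 and 259 CPM in members against 28.4, 28.2 and 42.6, and rose by 2.51 (SE 0.29, adjusted p = 9.9e-05). Gria1 rose by 0.84, whereas Gria2, the subunit that limits calcium entry, fell by 0.89 and the NMDA receptor gene Grin2b fell by 1.26. Of 14 glutamate receptor genes, 11 were tested, 2 were higher and 3 lower, the third being Grin2a. Grin2a missed the threshold by DESeq2 (adjusted p = 0.178), without the library block (0.0585), against the neurons matched on UMIs (0.0756) or on the other conditions (0.0533), and in members with a Pvalb UMI (0.115). Gria1 missed it by DESeq2 (0.0786) and without the block (0.0677), and Gria2 without the block (0.0628). Of 14 GABA receptor genes, 13 were tested, 1 was higher and 0 lower, where 11.2% of all genes passed. The cannabinoid receptor Cnr1 stood at 522, 544 and 646 CPM in members against 46.0, 62.8 and 42.9, with a log2 fold change of 3.33 (SE 0.24, adjusted p = 2.86e-06). It was 1 of 7 modulator receptors tested of 16, and Htr2c and Oprk1, the kappa opioid receptor, were lower; Htr2c missed the threshold by DESeq2 (0.0624). Of the partners of Pthlh and Kit, Pth1r and Pth2r were not tested, and the Kit ligand gene Kitl stood at a log2 fold change of -1.40 (adjusted p = 0.295).

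Projection neuron genes were low in members. The rule required 0 UMIs of Drd1 and Adora2a, so this side follows in part from the choice of cells. Of 22 genes, 21 were tested, 20 were lower and 0 higher, with a median log2 fold change of -3.01. Penk, which encodes enkephalins, stood at 120, 256 and 129 CPM in members against 2560, 2280 and 2945, and Foxp1 at 24.1 ± 28.8 against 763 ± 283. Against 1537 gate-negative neurons that met the other conditions of the rule, 19 of 19 tested genes were lower (median -3.28), where 8.98% of all genes were. The 10 genes ranked lowest by the fitted log2 fold change all had 0 UMIs in members, where the fit gives no size. A bound against a floor of 3 UMIs over the members replaces the fold change, and these genes are not shown to have fallen furthest. Adra2c, an adrenergic receptor, was at least 7.21-fold lower, Carhsp1 at least 6.35-fold and Oprk1 at least 5.71-fold. The bounds of Syt6, Unc13c, Chst15, Acvr1c, Igfbp6, Cobl and Tbc1d8 lay between 3.88-fold (Tbc1d8) and 5.61-fold (Syt6).

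**Figure D3:**
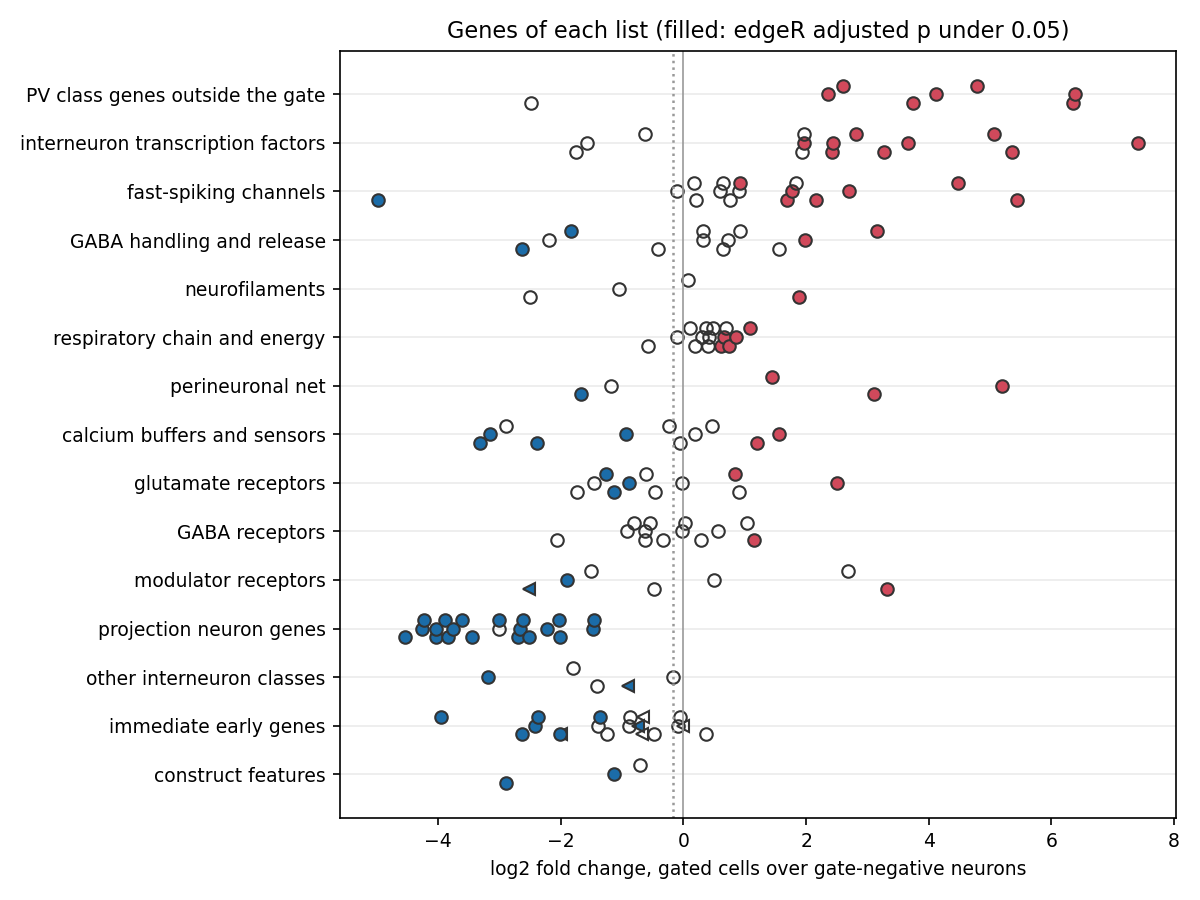
Log2 fold change of members over gate-negative neurons (horizontal axis) for each tested gene of 15 lists; filled points passed an adjusted p of 0.05 by edgeR, red higher and blue lower, triangles mark genes at 0 UMIs in members drawn at their bound, and the dotted line is the median of all genes. Interneuron transcription factors lie mostly to the right (9 of 14 higher) and projection neuron genes to the left (20 of 21 lower).

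Activity-regulated genes were lower or did not pass. Of 21 immediate early genes, 19 were tested, 8 were lower and 0 higher, with a median log2 fold change of -0.89 when genes without a UMI in members were set to their bound (-2.02 by the fit). Egr1 stood at 0, 88.0 and 275 CPM in members and 398, 461 and 586 in gate-negative neurons, and fell by 2.02 (SE 0.36, adjusted p = 0.00275). Junb fell by 2.38, and Nptx2, which binds AMPA receptors at synapses onto these cells, was at least 3.99-fold lower. By DESeq2, 4 of the 19 were lower (Junb, Egr1, Egr4 and Nptx2), where 271 of all 8732 genes were. Arc, Npas4, Nr4a1 and Homer1 missed the threshold by DESeq2 (adjusted p = 0.06, 0.128, 0.0825 and 0.059). In members with a Pvalb UMI, 5 of 19 were lower by edgeR, where 321 of all 8567 genes were. Fos, on 16 UMIs in 9 members, stood at a log2 fold change of -0.09. Against neurons matched on UMIs, 9 of the genes could be tested and 5 were lower, where 10.5% of all genes were. Summed over the 21 genes, members stood at 683, 936 and 1131 CPM in libraries 1 to 3 and gate-negative neurons at 1899, 2060 and 2774. Neurons with at least 10 Sst UMIs stood at 824, 785 and 1882, so the lower level was not particular to members.

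Summed markers of oligodendrocytes and of glutamatergic neurons were lower in members than in gate-negative neurons in each library, whereas the ranges for astrocytes and microglia overlapped. Summed CPM of 7 oligodendrocyte markers ran from 361 to 1008 in members and from 1417 to 2755 in gate-negative neurons, and 4 of 7 were lower. Astrocyte markers summed to 522, 528 and 2876 CPM in members, the last with the cell of 15589 UMIs, and to 690 to 1437 in gate-negative neurons; 0 of 7 passed. Microglia markers summed to 145 to 264 CPM in members and 120 to 729 in gate-negative neurons. Of 7 such markers 4 were tested, and 3 were lower (C1qa, C1qb and Cd74), of which C1qa alone passed by DESeq2. Glutamatergic markers summed to 0, 120 and 16.2 CPM in members, with Neurod6 at 0, and to 166 to 477 in gate-negative neurons. Depth and these markers moved with the groups, and their part in the results was not tested beyond the matched comparisons. Against the neurons matched on UMIs, 681 of the 975 genes could be tested, all with the same sign, and 585 passed again (19.1% of all genes passed there); against those matched on the other conditions it was 775, all with the same sign, and 666 (15.8%).

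The FLiCRE construct was present in members. TEV had a UMI in 25 of 53 members (47.2%) and 35.3% of gate-negative neurons, and tTA in 21 (39.6%) and 23.8%, against 4.20% and 2.36% of oligodendrocyte-gated cells. The mean difference over libraries was 16.9 percentage points for TEV and 17.0 for tTA, each with an exact sign-flip p of 0.25, the smallest that 3 libraries allow. Thinned to 1000 UMIs a cell, which left out 0 members and 431, 295 and 84 gate-negative neurons by library, the differences were -8.07 and 1.94 points. Thinning thus turned the sign of the TEV difference.

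The reporter mCherry had 7 UMIs in 6 of 53 members (11.3%, exact 95% interval 4.27 to 23.0), against 15.6% of gate-negative neurons and 6.04% of oligodendrocyte-gated cells (4.73 to 7.58). The interval of members overlapped that of the oligodendrocyte-gated cells and also contained the share of gate-negative neurons. The mean difference from gate-negative neurons over libraries was -0.683 points (-5.55, -6.23 and 9.73 by library). Thinned to 1000 UMIs a cell it was -1.46 points, and against neurons matched on UMIs it was -7.20 points. As summed counts, mCherry stood at 0, 40 and 32.3 CPM in members and 127, 192 and 348 in gate-negative neurons, a log2 fold change of -2.90 (SE 0.43, adjusted p = 0.000556). Of the 3474 mCherry UMIs of gate-negative neurons, 2114 lay in 5 cells. Without those 5 cells the log2 fold change was -1.33 and did not pass (adjusted p = 0.113). By summed counts TEV fell by 1.14 (adjusted p = 0.00979; 0.0635 by DESeq2) and tTA did not pass at -0.71 (0.141).

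The nearest other class was neurons with at least 10 Sst UMIs under the same GABA and receptor conditions, 26 cells (3, 18 and 5 by library) with a median of 3153.5 UMIs. Against them, members had more Igfbp4, Gpr83, Crabp1 and Etv1 and less Npy, Nos1 and Col25a1. Pvalb and Pthlh had 0 UMIs in the 26 cells, Kit 8 UMIs in 5 cells and Cox6a2 6 UMIs in 4 cells. Of 1122 genes tested, 44 (3.92%) passed: 16 (1.43%) were higher in members and 28 (2.5%) lower. Without library 2 or library 3 edgeR passed 0 genes (67 and 138 at an unadjusted p under 0.05) and DESeq2 1 gene each; without library 1 they passed 47 and 10. DESeq2 on all libraries passed 38 genes.

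Igfbp4 stood at 3654, 1152 and 2230 CPM in members and 0, 14.0 and 0 in Sst-high neurons, 1 UMI in all, with a log2 fold change of 6.98 (SE 0.59, adjusted p = 0.000416). Gpr83 had 132 UMIs in members and 1 in Sst-high neurons (log2 fold change 5.56), as did Crabp1 with 110 and 1 (5.36) and Etv1 with 86 and 1 (4.97). All 4 genes were also higher in members than in gate-negative neurons. Egfr and Nfix had 0 UMIs in Sst-high neurons and were at least 8.89-fold and 8.73-fold higher in members. Erbb4 rose by 3.17 and Crtac1 by 4.80. Without a filter on low counts, Egfr, Nfix, Crtac1 and Erbb4 were among those that missed the threshold (adjusted p = 0.098, 0.0988, 0.0988 and 0.0786). Egfr, Nfix and Crtac1 also missed it with cells of at least 1000 UMIs (0.0505, 0.0592 and 0.0642).

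Npy, the peptide of these Sst cells, stood at 0, 480 and 32.3 CPM in members, with the cell of 52 UMIs in library 2, and at 15448, 17488 and 18822 in Sst-high neurons. The groups did not overlap, which held for 17.3% of genes tested, and the log2 fold change was -6.63 (SE 0.75, adjusted p = 0.00286). Nos1, neuronal nitric oxide synthase, had 0 UMIs in members and 164 in Sst-high neurons, and was at least 113-fold lower. Tacr1, the substance P receptor, was at least 17.9-fold lower. Col25a1, Nell1, Crhbp, Fam46a and Nnat had log2 fold changes of -5.72, -5.47, -4.14, -4.11 and -3.89. Without a filter on low counts, Tacr1 and Fam46a missed the threshold (adjusted p = 0.0557 and 0.217), and Crhbp did so with cells of at least 1000 UMIs (0.0505). Lhx6, higher in members than in gate-negative neurons, was lower than in Sst-high neurons, at 61.6 ± 51.0 CPM against 405 ± 51.0 (log2 fold change -3.17, adjusted p = 0.0185; 0.118 without a filter on low counts).

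**Figure D4:**
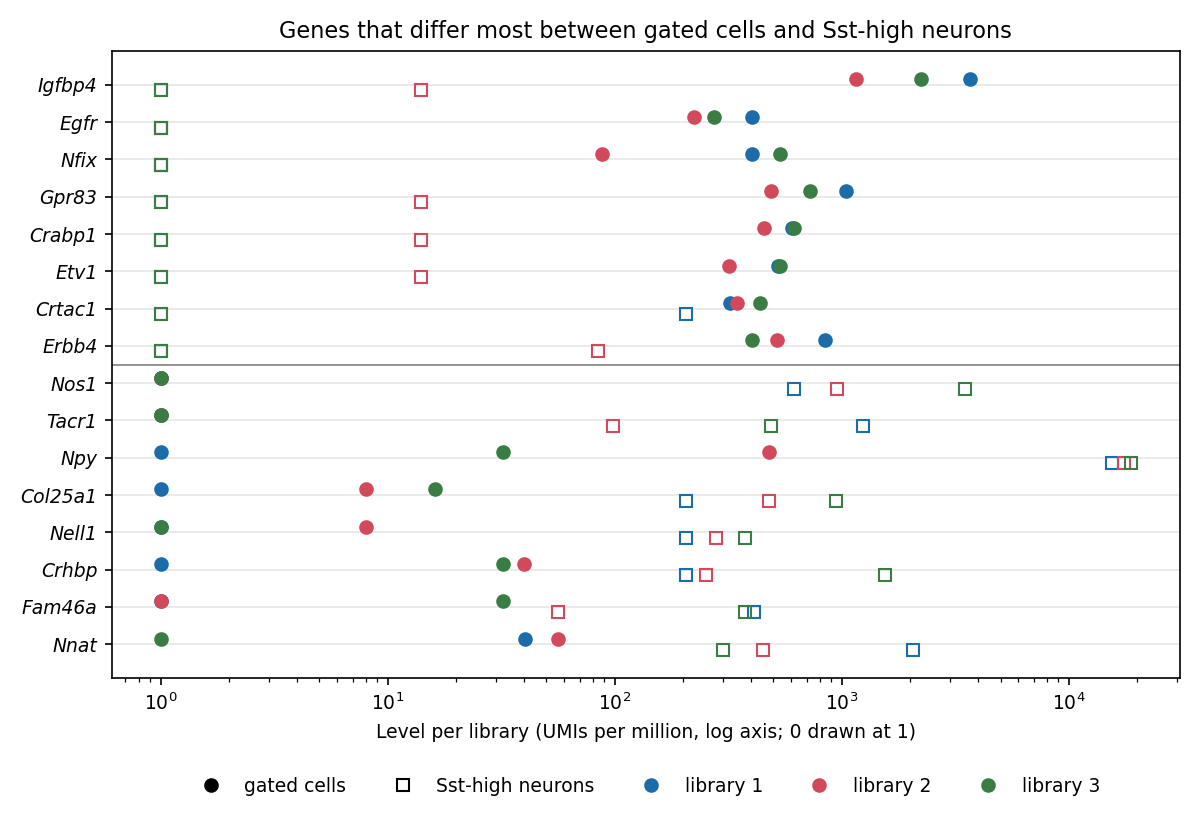
Level per library (CPM, log axis, 0 drawn at 1, where symbols of several libraries can lie on each other) of the 8 genes most raised (above the line) and 8 most lowered (below it) in members (filled circles) against Sst-high neurons (open squares). Igfbp4 lies between 1152 and 3654 in members and at most at 14.0 in Sst-high neurons, and Npy between 15448 and 18822 in Sst-high neurons.

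Some genes that rose against gate-negative neurons did not pass against Sst-high neurons. Kcnc1 stood at 423 ± 137 CPM in members and 180 ± 99.3 in Sst-high neurons (log2 fold change 1.29, SE 0.46, adjusted p = 0.209), and Nxph1 at 924 ± 316 and 252 ± 313 (1.51, SE 0.62, adjusted p = 0.284). With 3 Sst-high cells in library 1, a level there moved by 206 CPM with each UMI. Ndufa4 rose by 1.42 (adjusted p = 0.0437) and missed the threshold by DESeq2 (0.0592), without a filter on low counts (0.232) and without the block (0.109). Ndufa4 also missed it with cells of at least 1000 UMIs (0.0855) and against cells with at least 3 Sst UMIs (0.121). Pcp4 fell by 2.51, at 618 ± 160 CPM against 3747 ± 1468.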

How the data were processed

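Single cells of the nucleus accumbens were counted with the 10x Genomics 3′ v2 kit, per the labels. The deposited values are whole UMI counts for 28001 features (27998 genes, mCherry, TEV and tTA) and 11625 cells; the authors used Cell Ranger 3.0 and mm10, per the submitters' processing notes. The members and gene lists were chosen with earlier results of these data known.

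Counts were summed per library and group (24906, 125004 and 61895 UMIs in members), filtered with filterByExpr, scaled with TMM and tested with edgeR 4.0.16 (robust quasi-likelihood, library as block, Benjamini-Hochberg, threshold 0.05). The block is the library, from which both sums come. Alternatives were DESeq2 1.42.0, no filter, no block, default prior, left-out libraries, stricter cells and gates, cells without high Scrublet scores (scanpy 1.11.5, rate 0.06, highest 0.8% per 1000 cells), and matched comparison cells. Comparisons of Sst of at least 3 UMIs, and fits without cells of over 10000 UMIs, 2 members rich in Npy or Slc17a7, shared barcodes or 5 mCherry-rich neurons, were added after seeing the data. Scripts were tested on simulated data, drawn with the same spread for every gene. For the comparison with gate-negative neurons, edgeR passed 0% of simulated 2-fold rises and 85% of 4-fold rises. It passed 2.5% of 2-fold falls and 32.5% of 4-fold falls. A gene that did not pass is thus not shown to be equal between groups.

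Named genes were the 15 raised and 10 lowered genes of largest change (8 and 8 against Sst-high neurons) that passed, kept 1 sign in every library and had at least 10 UMIs where higher, plus list members; Hapln4, Kcnc1 and others in the Pvalb split were picked after their values were seen. The bound for a gene at 0 uses 3 counts over the group. Exact 95% intervals are Clopper-Pearson and, like bounds, cover counting error only. Some members of the lists are counted but not reported by name here.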

Additional observations from a re-analysis of the deposited data

How the results depend on the processing

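Against gate-negative neurons, 975 genes passed by edgeR. DESeq2 passed 540, and members with at least 1 Pvalb UMI 524. Leaving out 1 library gave 0 genes by edgeR each time and, by DESeq2, 299, 164 and 352 without libraries 1 to 3. The fit without the replicate block passed 712 of 7907 genes tested. Fits matched on UMIs and on the other conditions passed 688 of 3600 and 698 of 4430. These and the remaining alternatives stayed within 1.5 times of the 975. Without a filter on low counts the median log2 fold change of all genes was -0.92. Against Sst-high neurons 44 genes passed, 33 without the replicate block, 16 without a filter on low counts, 77 with the default prior, 25 with cells of at least 1000 UMIs and 80 with at least 1 Pvalb UMI. Without the 2 members of over 10000 UMIs it was 62. Leaving out 1 library gave 0 to 47 genes by edgeR and 1 to 10 by DESeq2. The cause of these differences was not tested. Fewer libraries or cells entered the fits that left out libraries or cells. DESeq2 on all libraries and the fits without block, without filter or with the default prior used the same cells as the main fit. The mean share of members among neurons was 1.49% with cells of at least 1000 UMIs and 0.533% with at least 1 Pvalb UMI, against 1.03%. The excess of cells with TEV was 16.9 points, 5.16 against neurons matched on UMIs and -8.07 after thinning to 1000 UMIs. That of tTA was 17.0 points, 10.8 against neurons matched on UMIs and 1.94 after thinning. For single genes, 1691 of 1821 values under alternatives other than left-out libraries kept direction and side of the threshold, 129 lost the call and 1 gained it. Among named and listed genes that passed, and the construct features, no log2 fold change reversed its direction where the gene could be tested. Other genes named here that did not pass in the main fit were not checked for this. The 53 members and 26 Sst-high neurons limit the depth of each sum.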
